A study of Mus musculus with 31 samples.

Results

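Acod1, Il4i1 and Ch25h are enzyme genes of activated macrophages. They were found by exact symbol in the table that pairs the array's probes with genes. Each has 1 probe, 6102 for Acod1, 6955 for Il4i1 and 381 for Ch25h, so the 3 genes are 3 of the 13872 probes on the array and 3 of the 7325 probes with enough values to be tested. The genes were chosen by their measured log2 ratios of stimulated over mock in these same 4 groups, so those ratios are given as a description without a test.

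The cells were macrophages grown for 8 days, in medium with 15% L929-conditioned medium as a source of CSF-1, from bone marrow of C57BL/6J mice, either wild type or lacking MyD88 (MyD88-/-), aged 6 to 8 weeks. MyD88 is a signalling adaptor of the Toll-like and interleukin 1 receptors. Cells received 10 ng/mL of re-purified LPS, live E. coli at 1 bacterium per macrophage, or medium alone (mock) for 2 hours. The 2 genotypes and 2 stimuli give 4 groups of 4 mice, and each spotted array pairs stimulated and mock RNA of a mouse in the 2 dyes. Where 4 values of a gene are given in group order, the first is for LPS in wild-type cells, the next for LPS in MyD88-/- cells, and the last 2 for E. coli in those genotypes in turn. Every mouse and stimulus has an array in each dye orientation, called unswapped and swapped, except MyD88-/- LPS mouse 4, which has the unswapped array only.

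The authors' normalized log2 ratios are used, in which 1 unit is a doubling. They are read as stimulated over mock, which is likely from the titles but not stated. The 15 pairs of swapped arrays correlated at r between 0.256 and 0.71 across probes, so the arrays run the same way. An array holds between 5564 and 10497 values, and the number of arrays limits the precision. A ratio says how far a message moved from mock and not how abundant it was, so fewer cells making a message and less message per cell cannot be told apart. For the same reason the cell type cannot be checked by level. Of 10 macrophage markers 9 were on the array, with values on a median of 30 of the 31 arrays, against medians of 7 for 5 T cell, 14 for 5 B cell, 16 for 7 neutrophil, 16 for 3 dendritic cell, 12 for 3 erythroid and 8 for 6 stromal markers. No marker was called in a genotype difference, beside 0.287% of all tested probes under LPS and 0.751% under E. coli. Of 6 macrophage markers tested, 1 was called higher and 2 lower in wild-type LPS, and 1 and 1 in MyD88-/- LPS. In wild-type E. coli 1 was higher and 1 lower, and in MyD88-/- E. coli 1 and 0. Of 3 B cell markers tested, 1 was called lower in MyD88-/- LPS. Zbtb46, the 1 dendritic cell marker tested, was called higher in wild-type LPS. The part of these markers in the results was not tested.

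Acod1 encodes the mitochondrial enzyme that makes itaconate from the TCA cycle intermediate cis-aconitate. Itaconate inhibits succinate dehydrogenase and, in bacteria, an enzyme of the glyoxylate shunt. Il4i1 encodes a secreted oxidase of aromatic amino acids that releases hydrogen peroxide and keto acids, some of which lead to ligands of the aryl hydrocarbon receptor. Ch25h encodes an enzyme of the endoplasmic reticulum that hydroxylates cholesterol on its side chain. The product is an oxysterol that restrains SREBP2-driven sterol synthesis, hinders the entry of enveloped viruses, and is the precursor of a ligand for the chemotactic receptor Gpr183.

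The genes lie on different chromosomes of the mouse build GRCm38.p6. Acod1 spans chr14:103047012-103056573, Il4i1 spans chr7:44836288-44840809 and Ch25h spans chr19:34473783-34475148. The RefSeq gene Il4i1b, at chr7:44816370-44840804, covers nearly the whole of Il4i1, so the probe may read either transcript. Where the probes lie within the transcripts is not given in the sources used here. Because the mean ratios of all 3 genes lay above mock in all 4 groups at 2 hours, their RefSeq promoter windows are shown. The lowest single mouse stood at 0.13, for Ch25h with LPS in MyD88-/- cells. The windows run from 250 bases before the start site to 50 bases from it. They lie at chr14:103046762-103047061 on the plus strand, chr7:44836038-44836337 on the plus strand and chr19:34475099-34475398 on the minus strand. Capitals mark motif matches, and all other bases are in lower case.
Acod1: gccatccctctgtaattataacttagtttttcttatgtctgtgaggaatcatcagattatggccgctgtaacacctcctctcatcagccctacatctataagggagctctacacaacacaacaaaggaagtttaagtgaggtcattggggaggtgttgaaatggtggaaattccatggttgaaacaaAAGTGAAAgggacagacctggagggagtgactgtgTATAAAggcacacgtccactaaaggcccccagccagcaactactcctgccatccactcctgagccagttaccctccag
Il4i1: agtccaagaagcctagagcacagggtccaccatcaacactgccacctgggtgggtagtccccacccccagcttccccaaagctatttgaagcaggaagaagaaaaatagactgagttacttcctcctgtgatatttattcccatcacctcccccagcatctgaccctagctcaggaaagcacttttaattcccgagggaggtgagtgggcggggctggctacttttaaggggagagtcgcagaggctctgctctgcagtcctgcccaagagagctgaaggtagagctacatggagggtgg
Ch25h: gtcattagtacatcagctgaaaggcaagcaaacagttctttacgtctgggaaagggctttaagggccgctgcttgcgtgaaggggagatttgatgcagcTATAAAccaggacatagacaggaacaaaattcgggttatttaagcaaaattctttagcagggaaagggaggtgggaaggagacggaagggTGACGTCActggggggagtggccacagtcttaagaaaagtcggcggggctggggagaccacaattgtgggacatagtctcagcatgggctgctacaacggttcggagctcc

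Motifs were searched on both strands. They were the NF-kB consensus, the core bound by interferon regulatory factors (IRF), AANNGAAA, and the cyclic AMP response element (CRE), TGACGTCA. The AP-1 site was searched as TGANTCA. The core of the interferon-stimulated response element was searched as GAAA repeated after any 2 bases, and a match to it overlaps an IRF core. The TATA box was searched for with the letters TATAAA. In Acod1 the IRF core matched at bases -63 to -56 and the TATA box at -28 to -23, counted from the start site. In Ch25h the CRE matched at -61 to -54 and a TATA box at -151 to -146. The Il4i1 window held none of these motifs. A window of Il4i1b, whose transcript the probe may read instead, was not examined by itself. Of 32841 windows of the same length, 23.9% held an IRF core, 13.6% a TATA box, 7.81% an AP-1 site, 4.51% the NF-kB consensus, 3.44% the longer interferon core and 1.79% a CRE. A match is a description of the letters and not a site.

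Acod1 had the steadiest values of the 3 genes. In wild-type cells given LPS the 4 mice had log2 ratios of 5.18, 4.69, 5.11 and 4.38, a mean of 4.84 ± 0.38 (SD, n = 4), or 28.6-fold over mock. In MyD88-/- cells given LPS the mice had 4.78, 6.13, 5.35 and 5.58, a mean of 5.46 ± 0.56 (SD, n = 4), or 44-fold. All 8 mice given LPS were high, and the 2 genotypes overlapped.

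With E. coli, Acod1 stood at 5.48, 5.95, 5.06 and 5.45 in the wild-type mice, a mean of 5.49 ± 0.36 (SD, n = 4). In the MyD88-/- mice it stood at 5.32, 5.28, 5.14 and 5.53, a mean of 5.32 ± 0.16 (SD, n = 4). The order from high to low was wild-type E. coli, MyD88-/- LPS, MyD88-/- E. coli and wild-type LPS, and the mouse values of all neighbours in that order overlapped. Among the 7325 tested probes, counted from the highest ratio, Acod1 held ranks 8, 1, 10 and 2 in group order. All 31 arrays gave a value for this itaconate enzyme, and the lowest was 3.90.

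Il4i1 varied more. In wild-type cells given LPS the mice had 4.85, 4.23, 1.46 and 3.33, a mean of 3.47 ± 1.48 (SD, n = 4), or 11.1-fold. Mouse 3 was the low one, and its unswapped array read -0.19 against 3.12 on the swapped array. In MyD88-/- cells given LPS, mice 1 to 3 had 1.75, 1.78 and 2.07, a mean of 1.86 ± 0.18 (SD, n = 3), or 3.64-fold, and mouse 4 had no value. The close agreement of these means covers arrays that differed, since mouse 2 read 3.83 on the unswapped and -0.28 on the swapped array.

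With E. coli, Il4i1 stood at 6.43, 5.73, 4.13 and 5.43 in the wild-type mice, a mean of 5.43 ± 0.96 (SD, n = 4), or 43.1-fold. In the MyD88-/- mice it stood at 3.78, 3.82, 4.44 and 3.06, a mean of 3.77 ± 0.57 (SD, n = 4), or 13.7-fold. Of the wild-type mice given E. coli, only mouse 3 lay within the range of the MyD88-/- mice. Its arrays differed, at 6.09 unswapped and 2.17 swapped, as did those of MyD88-/- mouse 4, at 1.27 and 4.84. MyD88-/- mice 1 and 3 had a value on the unswapped array only. From high to low the order was wild-type E. coli, MyD88-/- E. coli, wild-type LPS and MyD88-/- LPS, and the mouse values of all neighbours overlapped. The amino acid oxidase held ranks 30, 110, 13 and 15 in group order.

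Ch25h had the widest spread under LPS. The wild-type mice had 6.39, 2.63, 3.08 and 5.28, a mean of 4.35 ± 1.79 (SD, n = 4), or 20.3-fold. The MyD88-/- mice had 0.13, 4.29, 3.67 and 4.98, a mean of 3.27 ± 2.16 (SD, n = 4), or 9.62-fold. MyD88-/- mouse 1 was the low one, with -2.06 on the unswapped and 2.31 on the swapped array, and without it the mean was 4.31.

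With E. coli, Ch25h stood at 6.72, 5.62, 5.07 and 4.02 in the wild-type mice, a mean of 5.36 ± 1.12 (SD, n = 4), or 41-fold. The MyD88-/- mice had 3.88, 4.13, 3.75 and 4.47, a mean of 4.06 ± 0.32 (SD, n = 4), or 16.7-fold. Wild-type mice 1 to 3 lay above all MyD88-/- mice, and wild-type mouse 4 lay among them. From high to low the order was wild-type E. coli, wild-type LPS, MyD88-/- E. coli and MyD88-/- LPS, and the mouse values of all neighbours overlapped. The cholesterol hydroxylase held ranks 12, 27, 15 and 11 in group order.

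**Figure D1:**
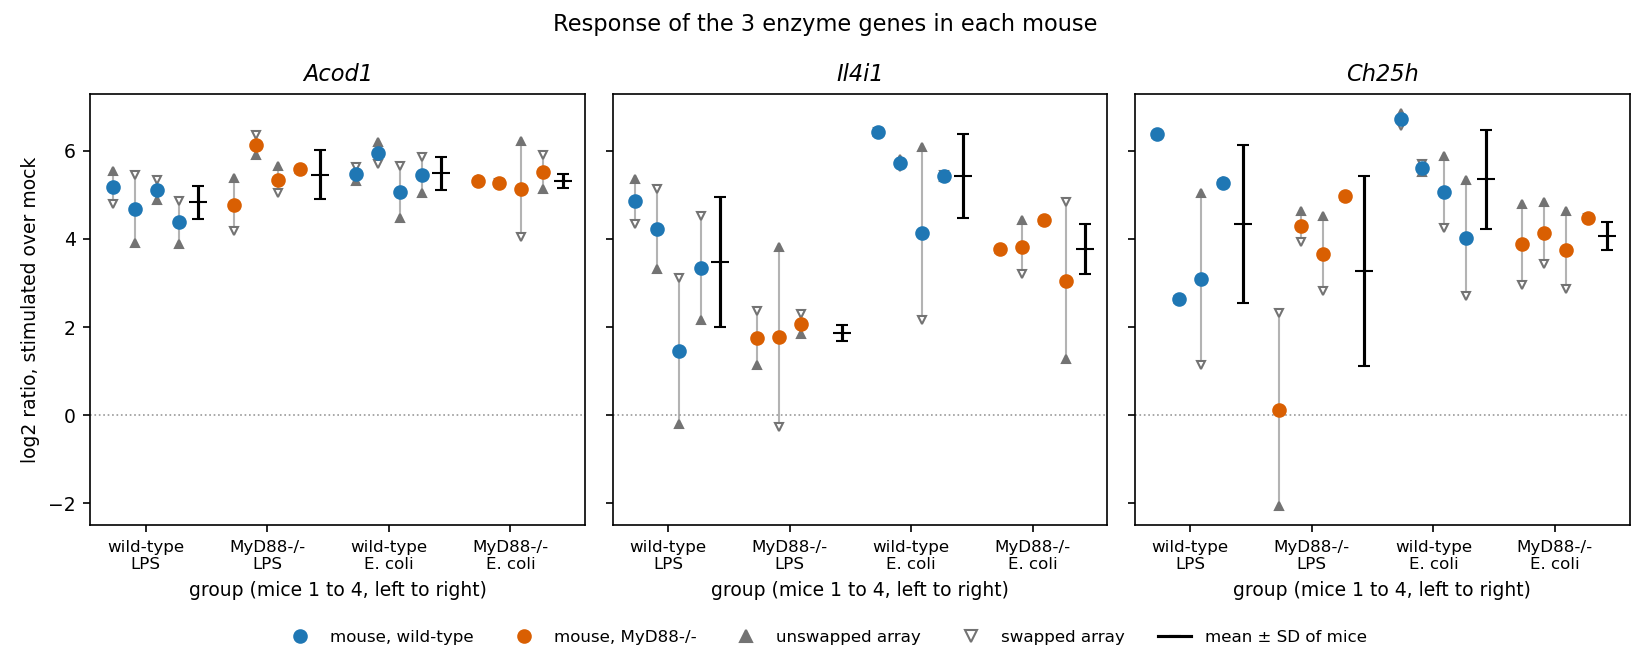
Log2 ratio of stimulated over mock (vertical axis) for Acod1, Il4i1 and Ch25h in the 4 groups (horizontal axis); filled circles are mice, triangles the unswapped and swapped arrays of that mouse, and bars the mean ± SD of the mice. Acod1 lies between 4.38 and 6.13 in every mouse, while Il4i1 and Ch25h spread from 1.46 to 6.43 and from 0.13 to 6.72.

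The dye orientations of a mouse differed more for these genes than for the median probe. The median absolute gap within a pair was 0.44 on the log2 scale over all tested probes. It was 0.75 for Acod1 (15 pairs), 1.22 for Il4i1 (13 pairs) and 1.65 for Ch25h (13 pairs). For Ch25h the unswapped array was the higher in 11 of 13 pairs, for Il4i1 in 5 of 13 and for Acod1 in 7 of 15. On unswapped arrays alone Ch25h averaged 4.76 in MyD88-/- cells given E. coli (mice 1 to 3), and on swapped arrays alone 3.43 (mice 1 to 4). In an array-level fit with a dye term the genotype differences of Ch25h were -1.04 under LPS and -1.27 under E. coli. Because most mice have both orientations, this fit could hardly depart from the mouse means, so its closeness to them shows little. On swapped arrays alone the LPS genotype difference of Ch25h was 0.029. Wild-type LPS mouse 1 (6.39) and MyD88-/- LPS mouse 4 (4.98) have no swapped value, so the mice changed along with the orientation.

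The genotype comparison asks how far the responses of the 3 genes differed without MyD88. Under LPS, Acod1 was 0.62 ± 0.27 higher in MyD88-/- cells on the log2 scale (SE, 4 mice per genotype, 95% interval 0.04 to 1.20), which limma did not call (adjusted p = 0.528). Il4i1 was lower by 1.61 ± 0.67 (SE, 4 and 3 mice, 95% interval -3.04 to -0.17) and was not called either (adjusted p = 0.505). For Ch25h the difference was -1.08 ± 0.97 (95% interval -3.14 to 0.99, adjusted p = 0.772), and -0.03 without MyD88-/- LPS mouse 1. It was -0.40 without wild-type LPS mouse 1, and -1.65 without wild-type LPS mouse 2 or without MyD88-/- LPS mouse 4. Exact permutation tests over the mice, with both tails, gave p = 0.114, 0.171 and 0.514 for Acod1, Il4i1 and Ch25h.

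In this comparison 0 of 3 genes were called, beside 0.287% of all tested probes, and an unadjusted limma p under 0.05 was found for 2 of 3 genes and for 653 of the 7325 probes. Mouse values of the genotypes overlapped for all 3 genes, while those of 6.68% of all probes did not. For Il4i1 the interval includes a response in MyD88-/- cells lower by 3.04 on the log2 scale. For Acod1 the difference was 0.40 without MyD88-/- LPS mouse 2.

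Under E. coli the differences were -0.17 ± 0.27 for Acod1 (SE, 4 mice per genotype, 95% interval -0.76 to 0.41, adjusted p = 0.85 in limma), which turned to 0.25 on unswapped arrays alone and 0.13 with scaled arrays. For Il4i1 it was -1.66 ± 0.62 (95% interval -2.99 to -0.33, adjusted p = 0.248), and for Ch25h -1.30 ± 0.97 (95% interval -3.36 to 0.77, adjusted p = 0.602), or -0.85 without wild-type E. coli mouse 1. The Acod1 value was -0.02 without wild-type E. coli mouse 2, -0.31 without wild-type mouse 3 and -0.11 without MyD88-/- mouse 3. The exact permutation p were 0.457, 0.0571 and 0.0857, and the smallest that 4 mice against 4 can give is 0.029. Here 0 of 3 genes were called, beside 0.751% of all probes, and 0 of 3 had mouse values without overlap, beside 9.08%. An unadjusted p under 0.05 was found for 1 of 3, Il4i1, and for 974 of the 7325 probes. Because the genes were chosen by ratios in the groups that enter these differences, and the comparisons share groups, the tests are no independent evidence.

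The stimulus comparison asks whether live E. coli at 1 bacterium per macrophage moved the genes further than LPS at 10 ng/mL did. How much LPS the bacteria brought is not given, so kind and dose of stimulus cannot be told apart. In wild-type cells Il4i1 was higher with E. coli by 1.96 ± 0.62 (SE, 4 mice per stimulus, 95% interval 0.63 to 3.29, adjusted p = 0.999 in limma), and by 1.29 without wild-type LPS mouse 3. In MyD88-/- cells it was higher by 1.91 ± 0.67 (3 and 4 mice, 95% interval 0.47 to 3.35, adjusted p = 1), and there the lowest mouse given E. coli, at 3.06, stood above the highest given LPS, at 2.07. Single arrays did overlap. That E. coli mouse read 1.27 unswapped and 4.84 swapped, and LPS mouse 2 read 3.83 and -0.28. Mouse values did not overlap for 1 of 3 genes in MyD88-/- cells, beside 2.32% of all tested probes, and for 0 of 3 in wild-type cells, beside 2.65%. The exact permutation p of Il4i1 was 0.0857 in wild-type and 0.0286 in MyD88-/- cells, the latter the smallest that 3 mice against 4 can give. In the same test Acod1 gave 0.0857 and 0.629, and Ch25h 0.343 and 0.743.

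Acod1 differed between stimuli by 0.65 ± 0.27 in wild-type (95% interval 0.06 to 1.23) and by -0.14 ± 0.27 in MyD88-/- cells (-0.73 to 0.44), the latter 0.08 without MyD88-/- LPS mouse 2 and -0.37 without mouse 1. For Ch25h the values were 1.01 ± 0.97 (-1.05 to 3.08) and 0.79 ± 0.97 (-1.27 to 2.86), the latter -0.25 without MyD88-/- LPS mouse 1 and 1.36 without mouse 4. The wild-type difference of Ch25h was 0.44, 0.59 and 1.69 without wild-type LPS mouse 2, 3 and 1, and 0.56 without wild-type E. coli mouse 1. Limma called 0 of 3 genes and 0% of all probes in either stimulus comparison. An unadjusted p under 0.05 was found for 2 of 3 genes in wild-type (Acod1 and Il4i1) and 1 of 3 in MyD88-/- cells (Il4i1), and for 297 and 177 of all probes. For the difference of the differences, E. coli minus LPS, Acod1 gave -0.79 (95% interval -1.62 to 0.03), Il4i1 -0.05 (-2.01 to 1.91) and Ch25h -0.22 (-3.14 to 2.70). Limma called 0 of 7325 probes there, with 219 at an unadjusted p under 0.05.

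**Figure D2:**
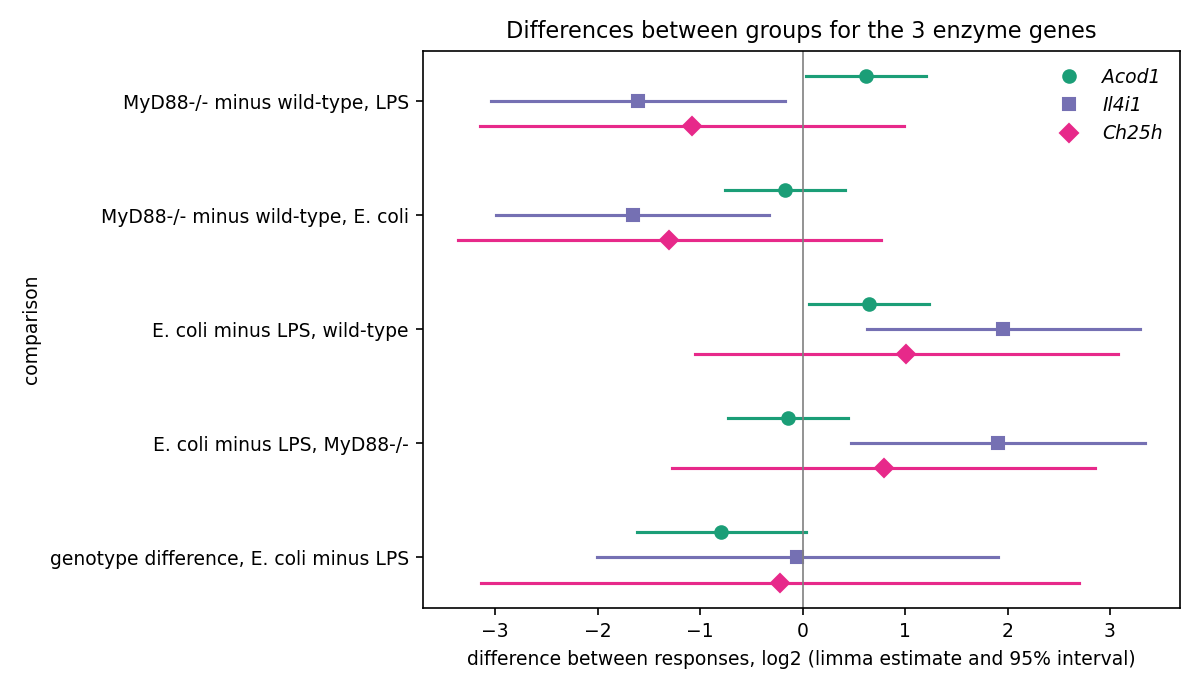
Differences between responses on the log2 scale (horizontal axis, limma estimate with 95% interval) for the 5 comparisons (vertical axis) and the 3 genes. Il4i1 lies at -1.61 and -1.66 in the genotype comparisons and at 1.96 and 1.91 in the stimulus comparisons, while Acod1 stays between -0.79 and 0.65 and the Ch25h intervals all include 0.

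Genes around the 3 enzymes come from 8 lists, with 1 probe a gene. As the background for their counts, limma called 17% of all probes in wild-type LPS (7.99% higher and 9.04% lower), 9.98% in MyD88-/- LPS (5.28% and 4.7%), 21.2% in wild-type E. coli (9.43% and 11.8%) and 10.8% in MyD88-/- E. coli (6.35% and 4.42%). The TCA cycle list, whose intermediate Acod1 consumes, had 19 of 34 genes tested. None rose in any group, and 0, 1, 2 and 0 fell, in group order. The 2 in wild-type E. coli were Cs, citrate synthase, at -0.46, and Sdhb, a subunit of succinate dehydrogenase, at -0.45 (limma adjusted p = 0.022 and 0.0196). The 1 in MyD88-/- LPS was Mmut, the methylmalonyl-CoA mutase, at -0.55 (adjusted p = 0.0456), named after its value was seen, a call lost in 16 of 25 alternatives. The list medians lay between -0.15 and 0.02, against -0.06 to -0.05 over all probes. Idh1 had values on 5 arrays only, and Sdha had no probe named here.

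The electrophile response, which itaconate is known to engage, went both ways. Its list holds genes driven by NRF2 along with Nfe2l2, the NRF2 repressor Keap1 and other genes. Of 12 genes tested of 16, 2 rose and 4 fell in wild-type LPS, 2 and 2 in MyD88-/- LPS, 1 and 4 in wild-type E. coli and 2 and 2 in MyD88-/- E. coli. Txnrd1, thioredoxin reductase, rose in all 4 groups, by 0.87, 1.18, 1.01 and 1.21 in group order. Slc7a11, the cystine transporter, rose by 1.42, 1.95 and 1.30 in the groups other than wild-type E. coli, where it gave 0.81. Hmox1, heme oxygenase, fell in all 4, to -1.32, -0.68, -1.29 and -0.59, the last a call lost in 14 of 25 alternatives. Gclm, of glutathione synthesis, fell in wild-type cells to -0.53 and -0.50. In MyD88-/- cells it gave -0.37 and -0.40 (adjusted p = 0.0871 and 0.06), and its genotype differences of 0.15 and 0.10 were not called (adjusted p = 0.835 and 0.868). Nfe2l2, which encodes NRF2, was not called in any group, with values from -0.04 to 0.24. Keap1, named after its values were seen, was among the genes that fell in wild-type cells, to -0.74 with LPS and -0.60 with E. coli. It gave -0.36 and -0.31 in MyD88-/- cells, where it was not called, and its genotype differences were not called either.

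Among amino acid, polyamine and tetrahydrobiopterin enzymes, the group to which Il4i1 belongs by chemistry, 19 of 36 genes were tested. In wild-type LPS 4 rose and 1 fell, in MyD88-/- LPS 2 and 1, in wild-type E. coli 4 and 3 and in MyD88-/- E. coli 2 and 1. Gch1, which starts tetrahydrobiopterin synthesis, rose by 1.74, 1.27, 1.98 and 1.31. Odc1, which makes putrescine, rose by 0.99, 1.15, 1.06 and 1.17. Arg2, the mitochondrial arginase, rose in wild-type cells by 2.38 and 2.36 and gave 1.08 and 1.36 in MyD88-/- cells, and Srm, spermidine synthase, rose in wild-type cells by 0.73 and 0.81 and gave -0.06 and 0.15 in MyD88-/- cells. Got1, a transaminase, fell in all 4 groups, to between -1.08 and -0.62. None of these was called in a genotype difference, as for Srm at -0.79 under LPS (adjusted p = 0.253), and Arg1 was not called in any group, with values from -0.25 to 0.82.

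Nos2 and Ptgs2 had too few values to be tested. Nos2, the inducible nitric oxide synthase, had log2 ratios between 1.44 and 4.95 in 4 wild-type LPS mice and between 1.07 and 3.21 in 4 wild-type E. coli mice. In MyD88-/- cells it lay between -0.29 and -0.12 in 2 mice given LPS and between 0.12 and 0.74 in 4 given E. coli. Ptgs2, the inducible cyclooxygenase, lay between 3.34 and 7.78 and between 6.10 and 8.01 in the wild-type mice given LPS and E. coli, and between 1.43 and 1.71 (2 mice) and between -0.25 and 3.41 (3 mice) in the MyD88-/- mice. Ido1, which degrades tryptophan, had values on 10 arrays. Of the aryl hydrocarbon receptor list only Arnt, the receptor's partner, was tested, at -0.48 to -0.38, and it was not called. Ahr had no probe named here.

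Of 18 genes of oxysterol synthesis, conversion and sensing 10 had a probe named here and 5 were tested, and 1, Hsd3b7, fell in every group, to -0.83, -0.97, -0.64 and -0.86 in group order (limma adjusted p between 0.000161 and 0.00316). Hsd3b7 encodes an enzyme that converts hydroxylated sterols, among them the Gpr183 ligand. Npc2, Srebf1 and Cyp46a1 were not called in any group, with values between -0.32 and 0.56. Cyp7b1, which makes the Gpr183 ligand, had values on 10 arrays and none in wild-type LPS mice, and Gpr183 and Insig1 had no probe named here. Of 10 genes tested of 26 on sterol synthesis, uptake and export, none was called in wild-type cells. In MyD88-/- cells Sqle rose with LPS by 0.63 (adjusted p = 0.0456) and Fdft1 with E. coli by 0.63 (adjusted p = 0.00736), both enzymes of squalene metabolism. The Sqle call was lost in 15 of 25 alternatives and the Fdft1 call in 2. Neither genotype difference was called, at 0.68 for Sqle under LPS (adjusted p = 0.476) and 0.52 for Fdft1 under E. coli (adjusted p = 0.249).

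Several other enzymes linked to inflammation rose. Of 20 tested of 31, 8 rose and 1 fell in wild-type LPS, 6 and 0 in MyD88-/- LPS, 7 and 2 in wild-type E. coli and 6 and 0 in MyD88-/- E. coli. Sod2, the mitochondrial superoxide dismutase, rose by 2.78, 2.80, 2.90 and 2.71 in group order. The glycolytic kinase Hk2 rose by 1.67, 1.21, 1.96 and 1.53 and the glucose transporter Slc2a1 by 0.77, 0.58, 1.23 and 0.86. Cmpk2, a mitochondrial nucleotide kinase, rose by 1.08, 3.00, 2.11 and 3.36, with genotype differences of 1.92 and 1.25 that were not called (adjusted p = 0.164 and 0.266). Its call in wild-type LPS was lost in 8 of 25 alternatives.

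Of 21 regulators tested of 24, 6 rose and 2 fell in wild-type LPS, 6 and 3 in MyD88-/- LPS, 9 and 2 in wild-type E. coli and 10 and 4 in MyD88-/- E. coli. Irf1, a transcription factor known to drive Acod1, rose by 3.61, 4.33, 3.95 and 4.23, with differences between genotypes of 0.72 and 0.28 (adjusted p = 0.683 and 0.855). The NF-kB subunits Nfkb2 and Rela rose by 2.46 to 2.77 and by 0.87 to 0.98, and Relb by 2.31 to 3.36. Ifnb1, whose product induces Ch25h, rose by 1.75 in the wild-type cells given E. coli (adjusted p = 0.000381), and its values in the other groups were 0.70, 0.32 and 0.26. Its genotype difference under E. coli was -1.49 (adjusted p = 0.105).

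The genotype differences called among all genes of the lists were those of Cebpd and Junb. Cebpd, named after its values were seen, encodes a C/EBP transcription factor and differed by -2.47 ± 0.25 (SE) under LPS (adjusted p = 0.000212) and by -3.00 ± 0.25 under E. coli (adjusted p = 1.45e-05). Junb, an AP-1 subunit, differed by -1.06 ± 0.18 under E. coli (adjusted p = 0.00745) and by -0.70 under LPS (adjusted p = 0.17). The Junb call under E. coli was lost on unswapped arrays alone (-0.81, adjusted p = 0.148), with scaled arrays (-0.86, adjusted p = 0.0706) and in a fit of only the 2 groups compared (-1.06, adjusted p = 0.0863). The Cebpd call under LPS was lost on swapped arrays alone (-2.11, adjusted p = 0.0772). Mouse values of Junb ranged from 2.23 to 2.55 in wild-type and from 0.94 to 1.65 in MyD88-/- mice given E. coli.

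**Figure D3:**
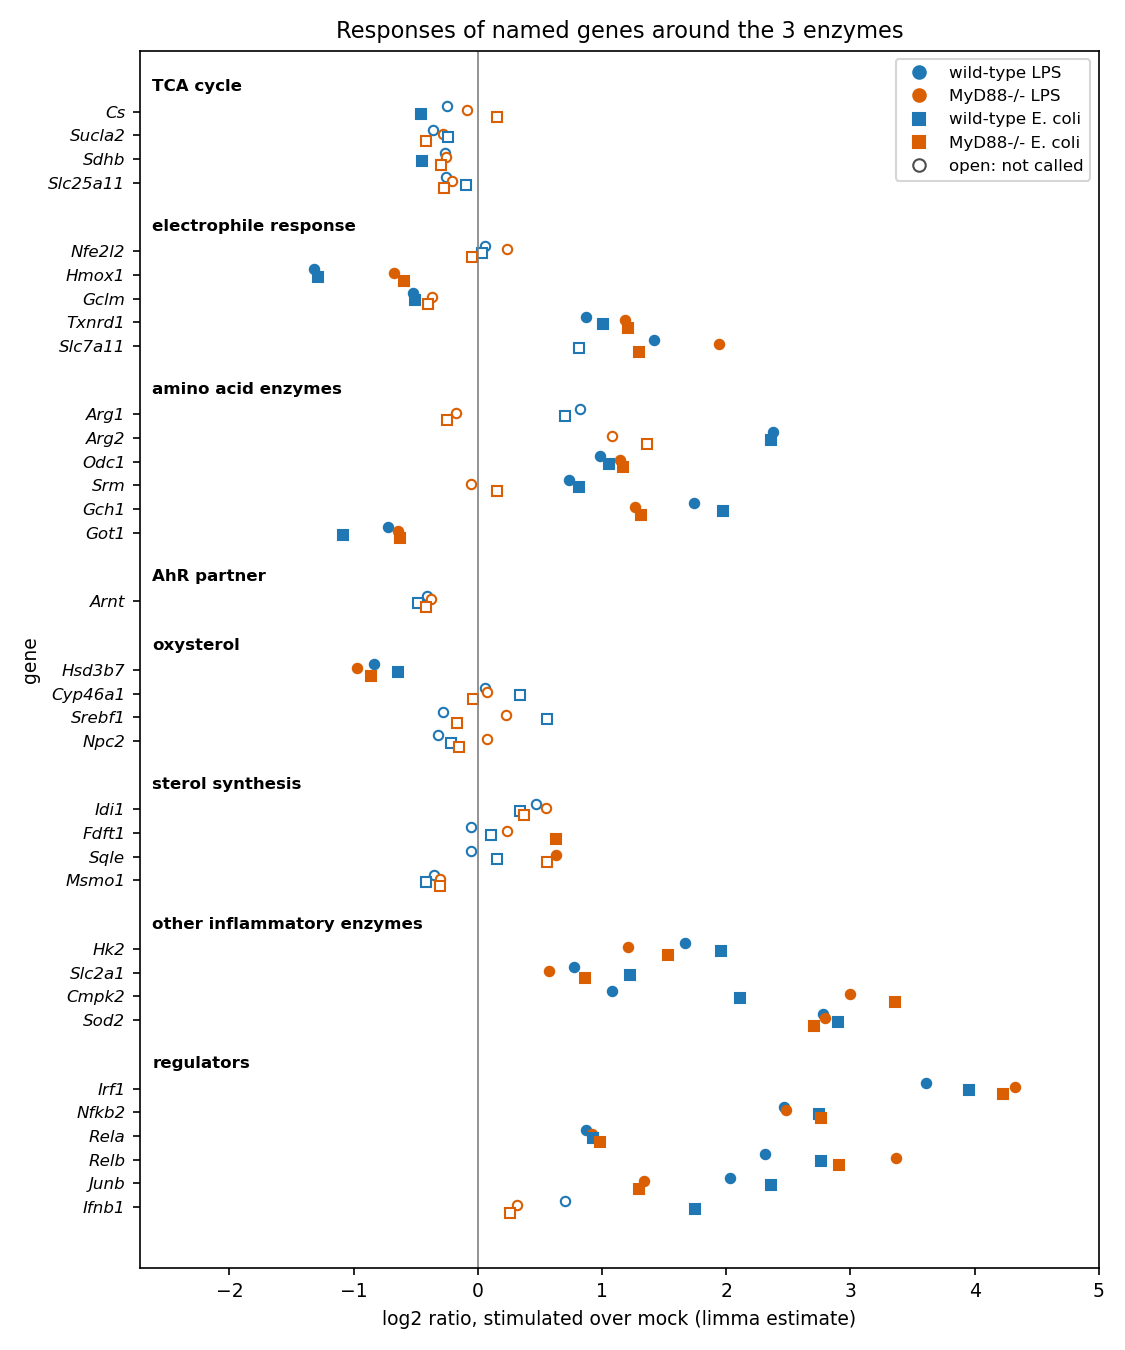
Log2 ratio of stimulated over mock (horizontal axis, limma estimate) for the named genes of 8 lists (vertical axis); circles are LPS and squares E. coli, blue wild-type and orange MyD88-/-, and filled marks passed limma at an adjusted p under 0.05. Irf1 lies between 3.61 and 4.33 and Sod2 between 2.71 and 2.90 in all groups, while the 4 TCA cycle genes drawn lie between -0.46 and 0.15.

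The genes whose ratios followed each enzyme most closely were ranked by Pearson's r over mice, among 5621 to 5773 named genes, with arrays shared by all genes. For Acod1 they were Spen (r = 0.80 over 15 mice), Trim25 (0.77), Ifit1 (0.75), Ccl5 (0.73) and Tbk1 (0.71), the last 4 over 16 mice. Trim25, Ifit1 and Tbk1 belong to antiviral sensing and the interferon response, and Ccl5 is a chemokine. Ccl5 itself stood at 3.93, 4.21, 5.05 and 4.24 in group order, and Ifit1 at 1.88, 4.02, 3.32 and 4.07. Tbk1 moved less, by 0.32 to 0.55. Spen lay below mock in every group, at -1.06, -0.58, -0.57 and -0.36, and was called only in wild-type LPS. Trim25 was not called in any group, with values from -0.37 to 0.27. Without the 2 mice farthest from the Acod1 median, wild-type LPS mouse 4 and MyD88-/- LPS mouse 2, the r fell to 0.53 for Trim25 and 0.52 for Ifit1 and lay between 0.67 and 0.76 for the other 3.

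For Il4i1 the closest were Gem (r = 0.85 over 14 mice), Inppl1 (0.81), Jak2 (0.80), Nt5c (0.80) and Stau2 (0.80), the last 4 over 15 mice. Gem encodes a small GTP-binding protein and stood at 3.31, 2.61, 5.11 and 3.06 in group order, and Jak2, a kinase of cytokine receptors, at 3.32, 2.78, 3.85 and 2.64. The others moved little. Inppl1 (0.15 to 0.52) and Nt5c (0.28 to 0.77) were called higher only in wild-type E. coli, and Stau2 (-0.25 to 0.57) in no group. Without wild-type E. coli mouse 1 and wild-type LPS mouse 3 the r of these genes with Il4i1, Gem and Jak2 included, lay between 0.66 and 0.79.

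For Ch25h they were Trip13 (r = 0.88 over 14 mice), Fam114a1 (0.87 over 15), Chd1l (0.80 over 15), 9030607L20Rik (0.80 over 16) and Wnt2b (0.78 over 14). In 4 of these 5, all but 9030607L20Rik, the lowest mouse was MyD88-/- LPS mouse 1, which is also the lowest for Ch25h, at -3.11 for Trip13 and -3.14 for Fam114a1. Without that mouse and wild-type LPS mouse 1 or wild-type E. coli mouse 1, r was 0.63 for Trip13, 0.54 for Fam114a1, 0.56 for Wnt2b, 0.76 for Chd1l and 0.82 for 9030607L20Rik, so the first 3 rest in part on those mice. These r are descriptions over mice of 4 groups and carry no test. Of the 5 genes closest to Ch25h, 9030607L20Rik stood at 1.19, 0.90, 2.01 and 0.57 in group order, called higher in all but the last. The others were not called in any group, with values from -0.85 to 0.55.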

How the data were processed

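Per the labels' protocols, the 31 spotted arrays were scanned with a GenePix 4000B scanner and quantified with GenePix Pro 3.0, and the authors used BASE and GeneSpring for analysis. The deposited table holds a normalized log2 ratio of both channels per probe and array. Background correction, normalization, spot filter and ratio direction are not given in the sources used here. Of all values 1.63% sat at a floor of log2(0.01) and were set to missing, and none of them belonged to the 3 genes. That floor covers low ratios only. The mouse values that rest on 1 array were folds of 13.7 and 21.7 for Il4i1. For Ch25h they were 84, 31.6 and 22.2. None of these folds has more than 1 decimal. Whether the mock signal of such spots sat at a lower limit, which would affect the size of the ratio, was not tested. Averaging the dye orientations gave 16 ratios, 1 for each mouse and stimulus. A probe was tested if every group had at least 3 mice with a value. All 7325 such probes entered 1 linear model with a coefficient per group (limma 3.58.1 in R 4.3.3, prior degrees of freedom 2.97), with Benjamini-Hochberg adjustment over all of them, and 0.05 was the threshold on the adjusted p. The script was tested on simulated data.

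The labels do not say whether mice of the same number, or their mock RNA, were the same for both stimuli. The 16 ratios were therefore treated as unpaired, and they may come from fewer than 16 mice. Symbols come from the platform's gene table, and 11437 of 11480 single-symbol probes matched a RefSeq gene of GRCm38.p6 by Entrez ID. Named genes are the 3 enzymes, the 5 genes of highest Pearson r with each (over at least 14 mice), the 4 genes of smallest p from each of 8 lists in limma's F test of the 4 responses, and a fixed set. For a gene on more than 1 probe, the probe with the most values was used. The members and lists were chosen with earlier results of these data known. Promoter windows and loci come from RefSeq, where 3 of 3 genes matched. Alternatives covered scaling, dye orientation, filters, blocks, the groups fitted and each mouse left out. Plots used matplotlib 3.10.9 (python 3.11.15).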

Additional observations from a re-analysis of the deposited data

Results flagged for a closer look

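In the groups of 4 mice no value of Acod1, Il4i1 or Ch25h was extreme by Dixon's test, and none of their differences was called. With 4 values that test flags only a very distant one, so it says little here. Leaving out the unflagged MyD88-/- LPS mouse 1 moved the LPS genotype difference of Ch25h from -1.08 to -0.03. Il4i1 in MyD88-/- LPS, with 3 mice, was not covered. Among the genes of the lists, 3 responses differed between genotypes by limma's test of the difference. For Cebpd, the MyD88-/- minus wild-type difference was -2.47 on the log2 scale under LPS (means of -1.18 and 1.29, adjusted p = 0.000212) and -3.00 under E. coli (means of -1.22 and 1.78, adjusted p = 1.45e-05). For Junb it was -1.06 under E. coli (means of 1.30 and 2.36, adjusted p = 0.00745).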

How the results depend on the processing

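Under the alternatives run, no difference of Acod1, Il4i1 or Ch25h passed the threshold. Of the planned ones, the lowest adjusted p was that of Il4i1 for E. coli minus LPS in wild-type cells, 0.0814 in limma with the mouse number as a fixed replicate block (1.96; 2.15 and adjusted p = 0.326 in MyD88-/- cells). That block turned the Il4i1 difference of differences to 0.19. Over all tested probes the mouse numbers were not shown to pair the samples. Deviations of same-numbered mice correlated at -0.06 to 0.14, and 2 of 8 matched best with their own number. Il4i1 did keep the order of the wild-type mice, and of MyD88-/- mice 1 to 3, under both stimuli. With and without the block, the SE of its wild-type stimulus difference was 0.24 and 0.62. That of Acod1 was 0.29 and 0.27, and that of Ch25h 0.80 and 0.97. Whether same-numbered mice are the same remains unknown. With scaled arrays the Acod1 response in wild-type LPS was 4.45 and its E. coli genotype difference 0.13. On unswapped and swapped arrays alone, Acod1 in MyD88-/- E. coli was 5.51 and 5.12, Il4i1 in MyD88-/- LPS 2.27 and 1.46, and Ch25h in MyD88-/- E. coli 4.76 and 3.43. Unswapped arrays turned the Acod1 E. coli genotype difference to 0.25 and the Ch25h difference of differences to 0.68. Swapped arrays, which lack wild-type LPS mouse 1 and MyD88-/- LPS mouse 4 for Ch25h, turned its LPS genotype difference to 0.029. Without dye pairs that differ by over 3, an alternative chosen after seeing the data, Il4i1 genotype differences were -2.23 under LPS and -1.85 under E. coli (limma adjusted p = 0.0941 and 0.0704). Its difference of differences turned to 0.38, and the Ch25h stimulus difference in MyD88-/- cells to -0.25.

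Probes called in the LPS genotype comparison, 21 as reported, numbered 12 on unswapped, 12 on swapped arrays, 42 in an array-level fit with a dye term and 35 among probes with all 16 values. In the E. coli genotype comparison, 55 as reported, they numbered 24 on unswapped arrays, 189 with the dye term, 86 with all 16 values and 32 in a fit of only the 2 groups compared. With a filter of 2 of 4 mice 1 probe was called in the wild-type stimulus comparison. Leaving out each mouse in turn, the E. coli genotype count ranged from 35 (without wild-type E. coli mouse 1) to 55, with 36 without MyD88-/- E. coli mouse 1. The Acod1 stimulus difference in MyD88-/- cells ranged from -0.37 to 0.079 and that of Ch25h from -0.25 to 1.36, and the difference of differences from -0.51 to 0.62 for Il4i1 and from -1.27 to 0.35 for Ch25h. The cause of these changes was not tested. Signal over background is not given, so its part in the precision of dim spots was not tested.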

Other observations

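The following list genes fall outside the naming rule and were picked after their values were seen. Sphk1, which makes sphingosine 1-phosphate, rose in wild-type cells by 3.14 with LPS and 2.80 with E. coli (limma adjusted p = 5.75e-05 and 0.000138), and gave 1.09 and 1.27 in MyD88-/- cells, where it was not called. Its genotype differences were not called either (-2.05 and -1.53, adjusted p = 0.23 and 0.247). Irf8, a transcription factor of the myeloid lineage, fell with LPS to -1.33 in wild-type and -1.51 in MyD88-/- cells, and with E. coli to -0.75 and -1.40. Jun, an AP-1 subunit, fell with LPS to -2.57 and -1.72, and with E. coli to -2.11 and -1.99.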
